A study of Mus musculus with 2 samples.

Results

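The 33 genes described here encode 23 integrin chains (16 alpha and 7 beta) and 10 laminin chains (5 alpha, 3 beta and 2 gamma) of the mouse. They were chosen by gene symbol, matched to the mouse Ensembl identifiers of the gene tables, and make up 33 of 43346 mouse gene rows. The study sequenced total RNA from liver of the mouse strain B6NCrl at embryonic day 14.5, with no genetic change, treatment or comparison group named in the labels. It has 1 group of 2 biological replicates with 1 library each, collected on 17 July 2014 (replicate 1) and 15 July 2014 (replicate 2). The labels describe each sample as the liver of 1 pup and also as pooled male and female, and both statements are given here as found. From each, 10 ng of RNA above 200 nucleotides, extracted with the mirVana kit, was used, and ERCC spike-ins (artificial RNAs of known amount) were added.

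Integrins are receptors of the cell surface that bind extracellular matrix or ligands on other cells, and each is a pair of an alpha and a beta chain that reach the surface together. The beta chain recruits talin and kindlin from the cytoplasm, and the alpha chain sets much of the ligand choice. Laminins are secreted trimers of an alpha, a beta and a gamma chain, form the first network of basement membranes and bind integrins through the end of the alpha chain. In the embryonic liver, blood-forming cells, hepatoblasts, endothelium and stellate cells lie side by side, and the sinusoids lack a continuous basement membrane.

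The feature that integrin chains share is a short motif in the cytoplasmic tail, and its coding sequence is shown for the detected chains on which the pairings below rest. In alpha chains the motif is a glycine, a pair of phenylalanines, any residue and an arginine, next to the membrane, where the tail meets that of the beta chain. Its coding bases are in capitals, with flanking coding bases in lower case, 5′ to 3′ on the coding strand. Sequences are from GENCODE M21 transcripts on GRCm38 (mm10), and each interval includes the intron that each of these stretches spans.
Itga4, chr2:79325689-79326543, plus: tggaaggctGGATTCTTTAAAAGAcagtac
Itgav, chr2:83802997-83803263, plus: tacaggatgGGCTTTTTCAAACGTgtccga
Itga5, chr15:103345329-103345957, minus: tacaagctcGGCTTCTTCAAACGTtccctc
Itga6, chr2:71849501-71853557, plus: tggaagtgtGGCTTCTTCAAGAGAaataag
Itgal, chr7:127330234-127333475, plus: tacaaggttGGCTTCTTCAAACGGaacctg
Itga1, chr13:114960111-114965603, minus: tggaagattGGATTCTTCAAAAGGccacta
Itga3, chr11:95046567-95046926, minus: tggaagtgcGGCTTCTTCAAGCGAgcccgc
Itga8, chr2:12109178-12110980, minus: tggaagtgtGGATTCTTTGATAGAgcaaga
Itga9, chr9:118887878-118897257, plus: tggaagatgGGCTTCTTCCGCAGAaggtac
Itgam, chr7:128116841-128117329, plus: tacaagcttGGCTTTTTCAAGCGGcagtac

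The motif was found within the last 90 residues in 15 of the 16 alpha chains, and these letters are absent from that window in Itga11. Over all protein-coding genes with a complete coding model, integrins included, 21 of 21562 (0.0974%) hold it in a window of that size. That count took the longest complete model of each gene, but the chains were read in the complete model with the most TPM. These counts are therefore not like for like, since a longer complete model of Itga3, Itgal and Itgam lacks the motif there. The 15 chains write the motif with 15 different base sequences, and in 15 of 15 an intron lies 3 bases before its first base. In beta chains the tail motif is asparagine, proline, any residue and then tyrosine or phenylalanine, the docking site of talin. The first copy in each detected beta chain is shown in capitals.
Itgb1, chr8:128726184-128732046, plus: acgggtgaaAATCCTATTTACaagagt
Itgb2, chr10:77564799-77565198, plus: aacaatgacAACCCCCTCTTCaagagt
Itgb5, chr16:33947879-33948680, plus: atggcctcaAACCCCCTGTACagaaag
Itgb7, chr15:102216244-102216474, minus: caggacaacAATCCTCTCTACaaaagt

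Of the 7 beta chains, 5 hold the motif in the last 70 residues, and 3 of these (Itgb1, Itgb2 and Itgb7) hold a second copy. Itgb4 and Itgb8 do not have these letters there. Over all genes 217 of 21562 (1.01%) hold it, again in the longest model of each. A longer model of Itgb5 lacks it, so these counts are not like for like either. A match describes the letters only. The 4 detected beta chains all hold the motif, and so do the 10 detected alpha chains, each in the transcript with the most TPM among those with a complete coding model.

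The libraries held 39998450 and 28848861 estimated reads, and mouse genes took 37059776 and 26908926 of these. Levels are given as TPM (a length-scaled share of all transcripts, with the same total in each library), always replicate 1 before replicate 2, and a gene is called detected at 1 TPM or more in both. Liver markers were high: 7 of 7 hepatoblast markers were detected, with a summed level of 12893 and 13724 TPM, and 7 of 7 erythroid markers, with 2890 and 3042 TPM. Markers of 2 tissues that should be missing were near 0, at 0.21 and 0.12 TPM summed over 4 squamous epithelial genes (Trp63 and Dsg3 at 0) and 0.85 and 0.27 TPM over 5 skeletal muscle genes (Myod1 and Myog at 0). In RNA of whole tissue, fewer cells of a type and less RNA per cell cannot be told apart.

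Of the 33 chains, 18 (54.5%) were detected, beside 26.2% of all mouse gene rows and 49.2% of protein-coding rows. The count was 14 of 23 for integrin chains (60.9%) and 4 of 10 for laminin chains (40%). The share over the chains is thus near that of protein-coding genes in general. The detected chains had a median of 3.87 TPM, below the 9.66 TPM median of all 11375 detected genes. By summed TPM the integrin chains held 137 and 152.8 and the laminin chains 15.31 and 16.35. The highest value among the 15 undetected chains was 0.75 TPM, 9 of them had fewer than 20 reads in both libraries, and Lamc3 had no read in either.

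**Figure D1:**
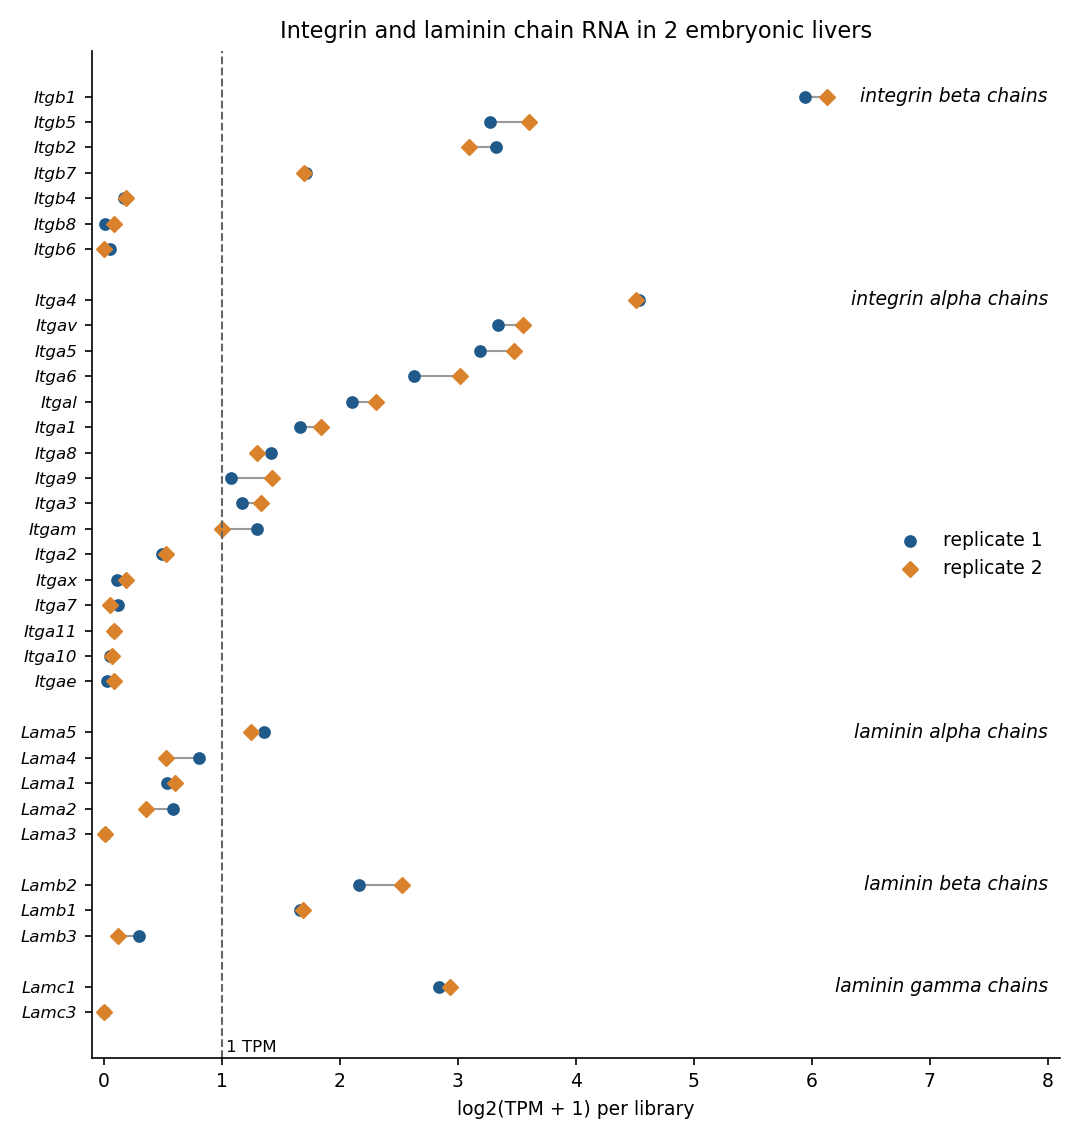
RNA level of the 33 chains in both livers, as log2(TPM + 1), by chain class; circles are replicate 1, diamonds replicate 2, and the dashed line marks 1 TPM. Itgb1 stands far above every other chain (60.52 and 68.85 TPM), and 15 chains lie left of the line.

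Itgb1, the beta chain shared by the matrix-binding integrins, was at 60.52 and 68.85 TPM (9387 and 7435 reads), which puts its mean above 87.9% of detected genes. It held 75.76 ± 1.07% (SD, n = 2) of the TPM of the beta chains described here. Itgb1 was thus the leading beta chain in both livers by a margin far wider than the difference between them. Itgb5, which pairs with Itgav to bind vitronectin, was at 8.69 and 11.15 TPM and held 11.58 ± 1.147% (SD, n = 2). Itgb2, the leukocyte beta chain, was at 9.01 and 7.53 TPM and held 9.767 ± 1.978% (SD, n = 2). The order of Itgb5 and Itgb2 was opposite in the 2 livers, so their levels did not differ beyond the spread. Itgb7, a beta chain of lymphocytes and mast cells, was at 2.29 and 2.25 TPM (247 and 168 reads), below both in each liver.

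The other beta chains of the set were near 0. Itgb3 and Itgb2l, which are outside the set and were not near 0, are given below. Itgb4, the epithelial chain that anchors keratin filaments at hemidesmosomes, was at 0.13 and 0.14 TPM, with 31 and 23 reads. Itgb8, which with Itgav activates latent TGF-beta, was at 0.01 and 0.06 TPM, with 1 and 12 reads. Itgb6, an epithelial partner of Itgav, had 8 reads in replicate 1 and 0 in replicate 2, where a count of 0 allows up to 3 reads. All 3 were below Itgb7 in both livers by more than the livers differed.

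Among the alpha chains described here Itga4, the Vcam1 and fibronectin receptor chain of blood-forming cells, led with 22.16 and 21.82 TPM (6708 and 5044 reads). It held 37.06 ± 3.282% (SD, n = 2) of the TPM of these alpha chains, and its mean lay above 70.6% of detected genes. No other of these alpha chains came within its range in either liver. Itga2b, an alpha chain outside this set that exceeded Itga4 in replicate 2, is given below. The exons of Itga4 overlap those of Cerkl on the opposite strand by 1124 nucleotides, Cerkl was at 4.26 and 1.74 TPM, and no source used here says if counting took account of the strand. Reads that both genes share cannot therefore be told apart.

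Itgav, the arginine-glycine-aspartate-binding chain that joins several beta chains, was next of the alpha chains described here with 9.14 and 10.73 TPM (776 and 627 reads). Itga5, the fibronectin receptor chain, was at 8.11 and 10.15 TPM (1451 and 1263 reads), so the ranges of Itgav and Itga5 overlapped. Itga6, a laminin receptor chain, was at 5.18 and 7.13 TPM. Itga6 lay below Itgav and Itga5 in each liver. On long transcripts alone the order turned for Itgav, with Itga6 at 5.03 and 6.79 TPM and Itgav at 2.35 and 2.72. Long Itga6 TPM includes Itga6-203, a transcript without coding sequence. The coding Itga6-201 alone was at 2.39 and 3.28 TPM, above long Itgav by less. Itgal, the leukocyte chain that binds Icam proteins, was at 3.31 and 3.95 TPM, and Itga1, a collagen receptor chain also carried by stellate and endothelial cells, was at 2.17 and 2.58 TPM. These followed in the same order in both livers, without overlap.

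The next 4 alpha chains were close to the threshold and their ranges overlapped in part. Itga8, a nephronectin receptor chain of mesenchymal cells, was at 1.67 and 1.46 TPM. Itga9, a tenascin and osteopontin receptor chain, was at 1.11 and 1.68 TPM, from 315 and 229 reads, a read ratio of 0.964 (0.8095 to 1.147) after scaling for depth. Its effective length differed between the libraries, because the transcript model gave 97.67% of its TPM to the longest transcript in replicate 1 and 60.43% in replicate 2. Itga3, a laminin receptor chain of epithelia, was at 1.26 and 1.52 TPM. Itgam, the myeloid chain of the complement receptor, was at 1.46 and 1.00 TPM with 239 and 122 reads, so in replicate 2 it stood at the threshold itself. The order among these 4 was not the same in the livers.

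Of the 6 undetected alpha chains, Itga2, a collagen receptor chain of platelets and epithelia, was the highest with 0.41 and 0.44 TPM (70 and 53 reads). Itgax, the dendritic cell chain, was at 0.08 and 0.14 TPM, and Itga7, the muscle laminin receptor chain, at 0.09 and 0.04 TPM. The collagen receptor chains Itga10 and Itga11, known from cartilage and fibroblasts, were at 0.04 to 0.06 TPM, and Itgae, the chain of intraepithelial lymphocytes that binds E-cadherin, at 0.02 and 0.06 TPM. None of these but Itga2 had more than 16 reads in a library. Genes at neighbouring positions differed: Itga1 (chr13:114953096-115101964) lies beside Itga2 (chr13:114833081-114932100), and Itgam (chr7:128062640-128118491) beside Itgax (chr7:128129547-128150657), with 1 detected chain in each pair. In the M21 annotation Itgam shares 3450 exon nucleotides with a same-strand gene, Gm49368, that is not a row of the gene tables.

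The pairing of chains was then read from a list of 24 known alpha and beta pairs, 21 of which are made of the chains above and 3 of which include Itga2b, Itgb3 or Itgad. Both chains were detected in both livers for 12 of the 21 and for 14 of the 24. Itgb1 had 8 of 12 alpha partners, Itgb2 had 2 of 4, Itgb7 had 1 of 2 (Itga4) and Itgb5 its 1 partner, Itgav. Itgb4, Itgb6 and Itgb8 had none of their pairs complete. In the 10 incomplete pairs the alpha chain was the missing one in 7 and the beta chain in 3, and no pair lacked both.

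**Figure D2:**
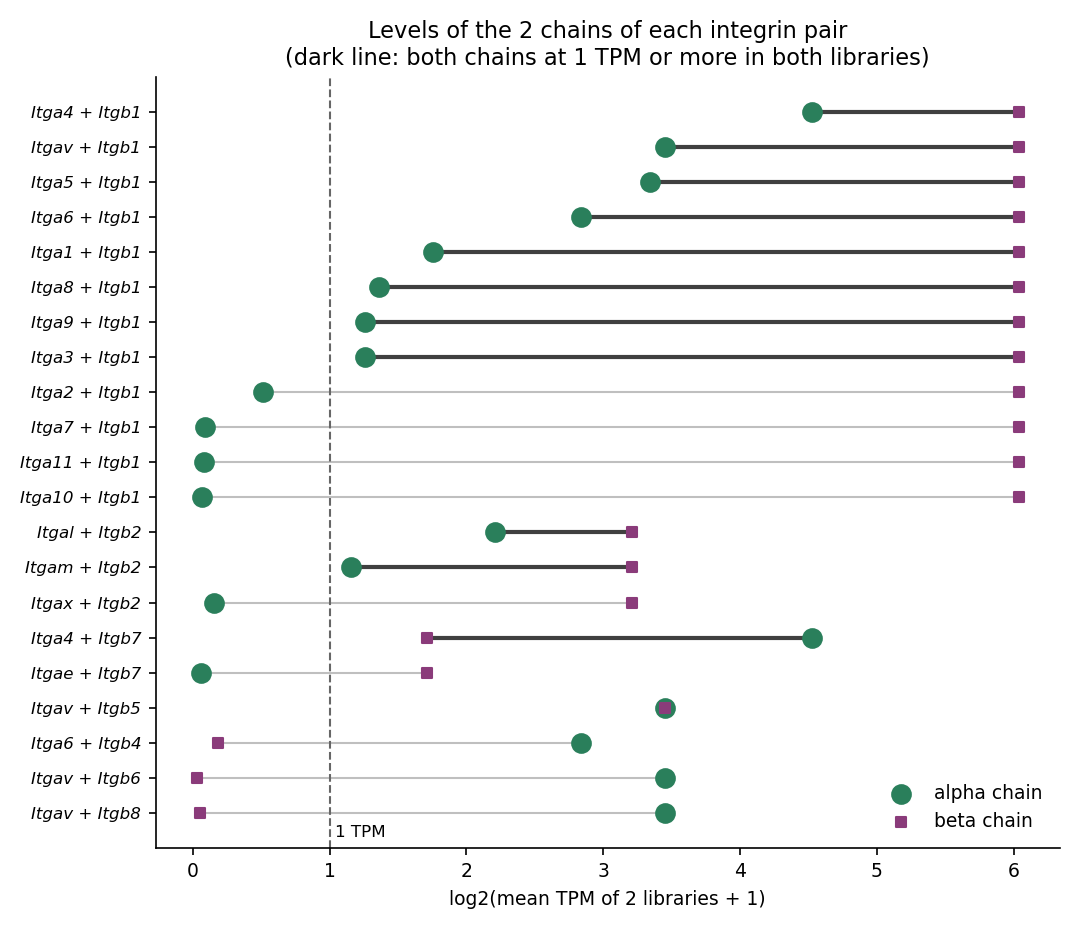
Mean level of the alpha chain (circle) and the beta chain (square) of the 21 pairs made of member chains, as log2(mean TPM + 1); a dark line joins pairs with both chains at 1 TPM or more in both libraries. In the Itgb1 pairs every alpha chain lies left of its beta chain, in the pair of Itgav and Itgb5 the symbols coincide, and in the pair of Itga4 and Itgb7 the alpha chain is the higher.

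The ratio of alpha to beta chain TPM differed by pair. For Itgb1, the summed TPM of its 12 alpha partners was 0.8493 and 0.8375 of that of Itgb1, although Itga4 and Itgav also pair with other beta chains. Its largest partner, Itga4, was at 0.3662 and 0.3169 of Itgb1, followed by Itgav (0.151 and 0.1558), Itga5 (0.134 and 0.1474) and Itga6 (0.08559 and 0.1036). Itgb1 RNA thus exceeded each partner in both livers. Itgav and Itgb5 were at a ratio of 1.052 and 0.9623, on either side of equality. Itga4 was 9.677 and 9.698 times Itgb7, so the chain with which Itga4 forms the gut-homing receptor of lymphocytes was the lower. For Itgb2 the summed partners Itgal, Itgam and Itgax were at 0.5383 and 0.676 of the beta chain, and Itgal exceeded Itgam in both livers. Over all member chains the alpha sum was 0.6974 and 0.698 of the beta sum. These are ratios of RNA and not of protein or of assembled receptor.

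The subunits of the platelet receptor for fibrinogen, which are not among the 33, completed the Itgb3 pairs. Itga2b was at 16.85 and 23.38 TPM and Itgb3 at 4.66 and 5.66 TPM, so Itga2b was below Itga4 in replicate 1 and above it in replicate 2. On long transcripts alone Itga2b, at 9.20 and 12.87 TPM, was below Itga4, at 15.26 and 16.93, in both livers. Itgad had no read, and Itgb2l, a gene related to Itgb2, was at 1.54 and 1.56 TPM. Markers of megakaryocytes, the cells that carry Itga2b and Itgb3, were detected for 8 of 8 genes, with 545.8 and 684.8 TPM in sum, and 8 of 8 were higher in replicate 2, as were 72.3% of all 11741 genes tested on the TPM scale. Their part in the levels of the chains was not tested.

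Among the laminins, Lamc1, the gamma chain of most laminins, was at 6.17 and 6.65 TPM (1061 and 816 reads) and held all of the gamma chain TPM of the 33 genes, since Lamc3 had no read. Lamb2, the beta chain known from vessel walls and synapses, was at 3.47 and 4.75 TPM, and Lamb1, the widespread embryonic beta chain, at 2.16 and 2.23 TPM. Lamb2 exceeded Lamb1 by 1.606 and 2.13 times, so the order was the same in both livers. Lamb3, the beta chain of epithelial anchoring laminin, was at 0.23 and 0.09 TPM with 20 and 3 reads.

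The alpha chains were the lowest class of the laminins. Lama5, the alpha chain of mature endothelial and epithelial basement membranes, was the only one detected, at 1.57 and 1.38 TPM from 132 and 124 reads. Lama4, of vessels and mesenchyme, was at 0.75 and 0.44 TPM (134 and 69 reads), and Lama1, of early embryonic basement membranes, was at 0.45 and 0.52 TPM (178 and 142 reads). Lama1 and Lama4 had about as many reads as Lama5 or more in replicate 1, so the lead of Lama5 in TPM comes with the short length its reads were divided by. Lama2, of muscle and nerve, was at 0.50 and 0.28 TPM from 38 and 37 reads, and Lama3, of epithelial anchoring laminin, at 0.01 TPM in both. The ranges of Lama1, Lama2 and Lama4 overlapped.

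Of 13 laminin trimers that the 10 chains can form in a list of known ones, 2 had all 3 chains at 1 TPM or more in both livers, Lama5 with Lamb1 and Lamc1 and Lama5 with Lamb2 and Lamc1. In both, Lama5 was the lowest chain. In 8 of the other trimers the alpha chain alone was missing. Summed TPM of the alpha chains was 0.5316 and 0.3955 of that of the gamma chains, whereas the beta sum was 0.9498 and 1.063 of it. The beta and gamma classes were thus level within the spread, and the alpha class was below both in each liver. Integrin beta chains exceeded laminin gamma chains 13.08 and 13.53 times, and 29.08 and 28.98 times on long transcripts alone.

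The levels above are sums over transcripts, and for several chains short transcripts set the sum. For each detected chain, TPM was split into transcripts at least 50% as long as the longest and shorter ones. Of the 18, 10 had more than 90% of TPM in long transcripts in both livers, among them Itgb1, Itga5, Itga6 and Itgb5. Those of Itga6 include a form without coding sequence, described below. Counted on long transcripts alone, 16 of the 33 chains were at 1 TPM or more in both livers: Itgam (1.30 and 0.93 TPM) and Lama5 dropped below. The pair of Itgam and Itgb2 was then incomplete and no laminin trimer was complete.

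**Figure D3:**
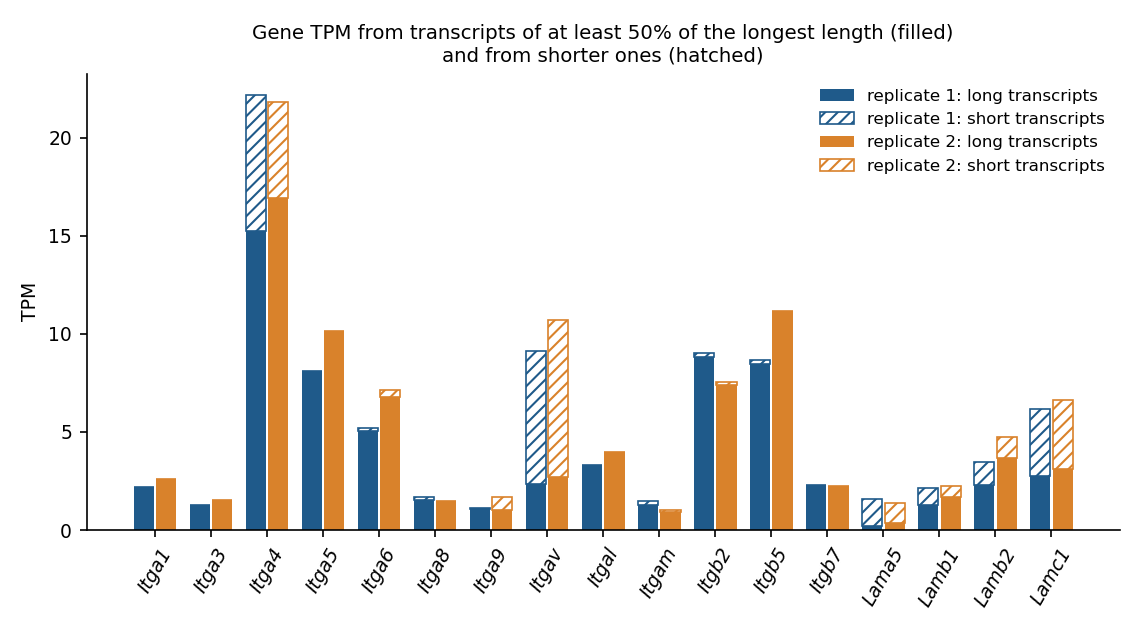
TPM of 17 detected chains in both livers, split into transcripts at least 50% as long as the gene's longest (filled) and shorter ones (hatched); Itgb1, wholly filled at 60.52 and 68.85 TPM, is left out for scale. The hatched part is the larger one for Itgav, Lama5 and Lamc1 in both livers.

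Itgav, Lama5 and Lamc1 showed this most. The Itgav transcript Itgav-205, of 463 nucleotides, held 72.48% and 71.53% of the gene's TPM from 101 and 81 reads. It lies at chr2:83802921-83806916, and all 463 nucleotides are shared with exons 29 and 30 of the 30 exons of the full-length Itgav-201, which is 7054 nucleotides long. Itgav-201 and Itgav-202, the long coding forms, took 173 and 492 reads in replicate 1 and 256 and 283 in replicate 2, with posterior SDs of 63.1 to 68.81 reads, so how those reads divide between them is uncertain. On long transcripts Itgav was at 2.35 and 2.72 TPM, a level close to that of Itga1, and its ratio to Itgb5 was 0.2774 and 0.2439. The match of Itgav and Itgb5 given above therefore held only with the short transcript counted. The share of Itgav in the TPM of the alpha chains described here was 16.66 ± 0.5941% (SD, n = 2) over all transcripts and 5.582% and 5.574% on long ones.

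Lamc1 was split between Lamc1-204, of 1447 nucleotides, with 55.25% and 52.12% of TPM, and the full-length Lamc1-201, of 7622 nucleotides, with 44.75% and 46.64%. By reads the order was opposite, with 81.89% and 83.12% on Lamc1-201. For Lama5 the full-length Lama5-201, of 11388 nucleotides, took 80.86% and 89.88% of reads but 14.37% and 24.62% of TPM, and long-transcript TPM was 0.23 and 0.34. On long transcripts the laminin beta sum was 1.326 and 1.729 times the gamma sum, so the level ratio given above did not hold there, and Lama5 was below Lama4 and Lama1 in share of the alpha TPM, with 17.97% and 23.78%. Its leading transcript by TPM was Lama5-204 (478 nucleotides) in replicate 1 and Lama5-202 (451 nucleotides) in replicate 2, on 12 and 5 reads. All nucleotides of these short Lamc1 and Lama5 transcripts are shared with the full-length ones, toward its 3′ end: exons 23 to 28 of 28 in Lamc1, and within exons 67 to 79 of 79 in Lama5.

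In the integrin chains that led their classes, the coding transcript led. Itgb1-201 held 99.22% and 100% of Itgb1 TPM and Itga4-201 68.89% and 77.58% of Itga4 TPM, with 91.99% and 94.28% of reads. Itga4-203, annotated as a processed transcript without coding sequence, held 19.7% and 9.41% of TPM. Itgb5-202 held 85.61% and 87.98%, and the remainder was mostly Itgb5-201, whose annotated tail does not hold the beta motif shown above. Itgb5-201 had 127 and 115 reads with posterior SDs of 51.12 and 56.09, so its share is uncertain. Itgb2-201 held 71.98% and 75.21%, and Itgb2-204, annotated as a target of nonsense-mediated decay, 23.68% and 21.39%, with posterior SDs of 49.03 and 36.7 on 225 and 118 reads. Laminin beta chains were led by the long Lamb2-201 (66.37% and 76.78%) and Lamb1-201 (58.48% and 75.98%); of Lamb1, 28.33% and 23.26% lay on a shorter transcript that GENCODE M21 does not list.

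For Itgal, Itgam and, as given above, Lama5 the leading form differed between the livers or was poorly separated. Itgal-203, which lacks the first exons of the gene, led by TPM with 49.79% and 60.39%, while the full-length Itgal-201 and Itgal-202 shared the rest in changing parts and with posterior SDs up to 90.3 reads. The leading Itgam form was a transcript that is not in M21, with 54.93%, in replicate 1 and Itgam-201, with 33.16%, in replicate 2. Itga3-201 led with 64.25% and 84.75%, Itga8-201 with 92.04% and 100%. Of the 16 detected chains with several transcripts, 14 had the same leader in both livers by TPM and 15 by reads.

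Itga6 and Itga3 have alternative tail exons, known as the A and B forms, and these could be read from the transcripts. The final 30 coding bases of the Itga6 forms, which lie in different exons, are given here on the plus strand, with no part capitalised.
Itga6-201 (A form), chr2:71853609-71853638: tctgataaagagaggcttacttccgatgca
Itga6-202 (B form), chr2:71855983-71856012: accaagtggaatgaaaacgaaagttactca
Itga6-201 was at 2.39 and 3.28 TPM, and Itga6-202 was listed at 0.00 TPM in both livers. Itga6-203, a processed transcript with 1690 of its 2721 nucleotides outside Itga6-201, held 51.09% and 49.18% of the gene's TPM. For Itga6 the coding RNA assigned was thus that of the A form in both livers, and more TPM, but fewer reads (40.65% and 39.68% against 59.07% and 59.6%), lay on a form without coding sequence. For Itga3, Itga3-201 was at 0.81 and 1.29 TPM and Itga3-203, with another tail, at 0.45 and 0.04 TPM, on 86 and 6 reads with posterior SDs of 41.77 and 22.35. The split of Itga3 is within those errors in part and did not repeat between livers.

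The proteins that act on integrin tails were mostly present. Of 23 linkers and activators, 20 were detected, with a median of 13.68 and 15.91 TPM. The highest by mean were Rap1b, a small GTPase of integrin activation, at 108.52 and 116.54 TPM, Ilk, the pseudokinase that ties beta tails to actin, at 103.34 and 109.94 TPM, and Cib1, a calcium-binding protein that binds the Itga2b tail, at 75.66 and 70.99 TPM. The lowest was Fermt1, the epithelial kindlin, at 0.06 and 0.00 TPM. None of the 23 was 1.5-fold apart between the livers on TPM + 1; Parvb, an actin-binding partner of Ilk, came nearest at 5.93 and 9.36 TPM (log2 ratio 0.58).

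Of 18 integrin ligands, 16 were detected, and the highest are plasma proteins made by the liver. The fibrinogen chains Fga and Fgg were at 411.14 and 355.95 TPM and at 360.27 and 321.82 TPM, and vitronectin, Vtn, the ligand of Itgav pairs, was at 292.66 and 354.54 TPM. The lowest was Madcam1, the gut ligand of the pair of Itga4 and Itgb7, at 0.16 and 0.31 TPM. Vcam1 (59.80 and 58.05 TPM) and fibronectin, Fn1 (64.38 and 69.74 TPM), which Itga4 pairs also bind, are named here after their values were seen.

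The basement membrane partners of laminin were detected for 8 of 9 genes, with 135.9 and 152.2 TPM in sum. Sparc, a collagen-binding matrix protein, was at 67.37 and 69.56 TPM, Col18a1, the collagen of vessel basement membranes that gives rise to endostatin, at 27.71 and 36.50 TPM, and Nid1, which bridges laminin and collagen IV networks, at 11.60 and 14.23 TPM. Ntn4, a laminin-related netrin, was the lowest at 0.10 and 0.04 TPM. The list's median was 6.83 and 7.71 TPM, above each laminin chain in both livers and close to Lamc1.

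The livers were then set against each other on the members. On the scale of log2(TPM + 1), replicate 2 over replicate 1, none of the 18 chains with a mean of 1 TPM or more was 1.5-fold higher, where 1.47% of 11741 genes were, and none was 1.5-fold lower, where 1.08% were. At these shares a count of 0 among 18 is near the background. The members' ratios ran from -0.30 (Itgam) to 0.40 (Itga6), with a median of 0.17 beside 0.10 over all genes. On counts scaled by TMM the medians were 0.09 and 0.00, so about 0.10 of the TPM ratio is common to all genes. With 1 library a liver, these ratios carry no test and no p-value, and liver, collection day and library cannot be told apart.

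**Figure D4:**
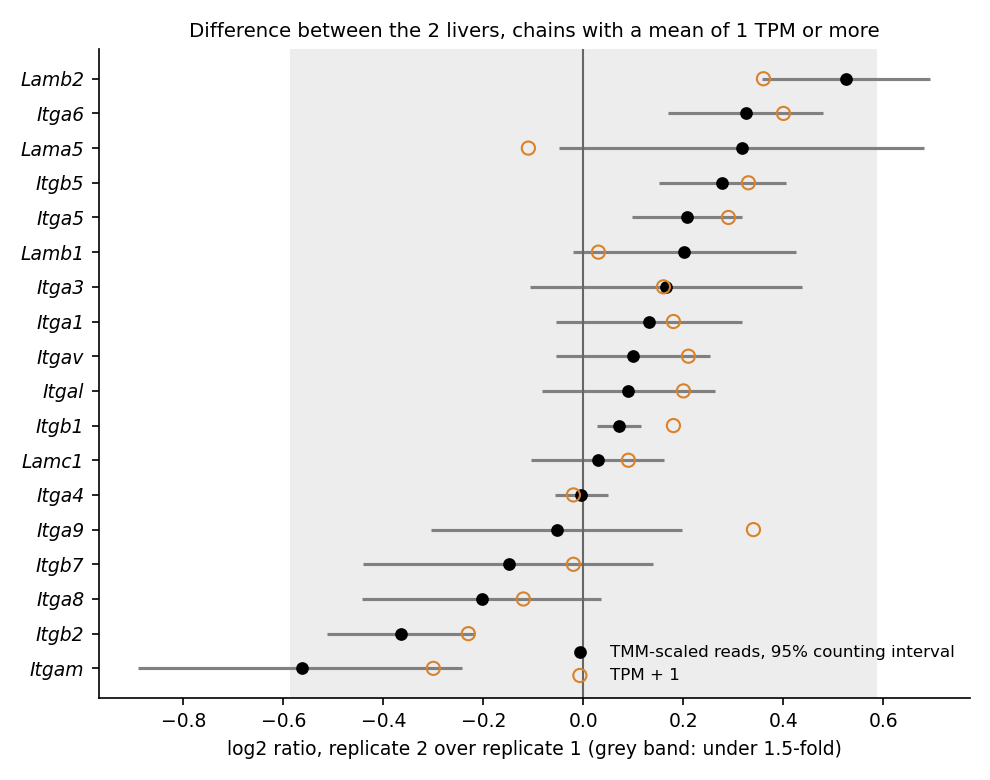
Log2 ratio of replicate 2 over replicate 1 for the 18 chains with a mean of 1 TPM or more; filled points are TMM-scaled reads with a 95% counting interval, open circles are TPM + 1, and the grey band is under 1.5-fold on the axis. All points of both kinds lie inside the band, some intervals reach beyond it, and Lamb2 is the highest and Itgam the lowest by reads.

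The counting error alone left some of these ratios apart from 1. The 95% counting interval of the TMM-scaled read ratio lay above 1 for 5 of 18 chains, where it did for 19.1% of all genes, and below 1 for 2, where it did for 20.6%. The highest was Lamb2, at 1.439 (1.28 to 1.617), followed by Itga6, Itgb5, Itga5 and Itgb1, the last at 1.05 (1.019 to 1.083). The chains below 1 were the myeloid chain Itgam, at 0.6769 (0.5397 to 0.8453), and its partner Itgb2, at 0.7767 (0.7012 to 0.8599). Markers of neutrophils, which carry Itgam and Itgb2, were lower in replicate 2 for 8 of 8 genes, where 72.3% of all genes were higher on the TPM scale, with 2751 and 1979 TPM in sum and a median log2 ratio of -0.40. Those of macrophages, which carry them too, were at 243 and 250.1 TPM. The part of these cells in the ratios of Itgam and Itgb2 was not tested.

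Ratios of Itga9 and Lama5 depended on the scale. For Itga9 the log2 ratio was 0.34 on TPM and -0.05 on TMM-scaled reads, and for Lama5 it was -0.11 and 0.25. In both the effective length used for TPM differed between the libraries, as the transcript shares above show. Their direction is therefore not given. Besides lymphocytes, Itgb7 and Itga4 are known to pair in mast cells and basophils, whose markers summed to 21.86 and 9.29 TPM. Mcpt8 (12.62 and 3.51 TPM) and Prss34 (2.95 and 0.59 TPM) were more than 1.5-fold lower in replicate 2. Cpa3, at 2.66 and 2.88 TPM, was not lower. Of the 4 markers with a mean of 1 TPM or more, 3 were lower in replicate 2 and 1 was higher. Itgb7 itself was at 2.29 and 2.25 TPM, a read ratio of 0.9019 (0.7369 to 1.102). Lymphoid markers summed to 8.24 and 8.36 TPM, endothelial ones to 89.82 and 90.34 TPM and stellate ones to 137.5 and 146.7 TPM, and the part of any of these cells in the levels of the chains was not tested.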

How the data were processed

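Per the labels, RNA of 2 embryonic livers was sequenced, 1 library each. For each library the authors deposited tables of genes and of transcripts, and the deposited description names mm10 and GENCODE M4. Aligner, counter: not given in the sources used here. The authors deposited expected counts (estimated reads) unnormalized. TPM and FPKM were deposited as length-scaled shares, and per the file headers the percent of gene TPM per transcript and a posterior SD of each count, another unit, in reads, were deposited too. Columns of other samples numbered 0.

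Symbols and positions came from GENCODE M21 on the same build. Detection was 1 TPM in both libraries. Ratios used a pseudocount of 1, and called meant 1.5-fold. Counts, rounded, were scaled with edgeR 4.0.16 (TMM) and DESeq2 1.42.0 factors in R 4.3.3, with no test. Intervals are exact at 95%, and they and the limit of 3 reads for a count of 0 cover counting error only, since reads are amplified and not independent molecules. Other steps used Python 3.11.15, and of these only the 1.5-fold call was tested on simulated data. Each detected chain had 122 or more reads, but a level set by a short transcript rests on the fewer reads of that transcript. Replicates are separate livers per the labels.

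Members and lists were chosen with earlier results of these data known. Named were all members, and of each context list the 3 highest by mean, the lowest and any past 1.5-fold. Vcam1, Fn1, Parvb and Dag1 were named outside this rule. Of transcripts, the leader and a second with 20% or more in both livers were named, and further ones chosen after their values were seen. The alpha motif was to be sought in 60 residues of protein records. Coding sequences of M21 transcripts were translated instead and 90 residues searched, chosen after seeing that the Itga7 motif lies 75 from the end. Alternatives were detection at 0.5 or 2 TPM or above 0, pseudocounts of 0.1 and 5, FPKM, other scalings, expected counts, the non-member integrin subunits, each library left out and, chosen after seeing the data, long transcripts alone. 1 planned item is not reported here.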

Additional observations from a re-analysis of the deposited data

How the results depend on the processing

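With 1 group of 2 libraries no paired analysis was possible because there is no second group, and no result has a test to gain or lose. Of 110 alternatives tried on the summary values, 91 moved them by less than the spread between the libraries (for counts, by less than 1.5 times). The other 19 moved them further. Of 216 on further shares and ratios and on single-chain log2 ratios, 180 stayed within their limit and 36 did not. Single-chain log2 ratios have no such spread and were judged by counting error, so a change of sign could stay within it. These tallies do not measure stability, since some alternatives could not move a value past its limit. Leaving out 1 of 2 libraries shifts a mean by less than the SD, and FPKM shares follow TPM shares by construction. No called difference existed to reverse, but the sign of the log2 ratio between livers changed with the scale for Itga9 (0.34 on TPM, -0.05 with TMM), Lama5 (-0.11 and 0.25), Itga4 (-0.02, and 0.14 on long transcripts) and Lamb1 (0.03, and -0.01 on FPKM). Detection at any TPM above 0 gave 31 chains, 22 pairs and 10 trimers. Trimers fell to 0 at 2 TPM and to 0 on long transcripts, a setting chosen after seeing the data. Shares moved with expected counts to 80.29% for Itgb1, 54.46% for Itga4, 6.53% for Itgav and 30.19% for Lama5, since counts are not divided by length, and Lama1 then led its class with 37.33%. With the non-member integrin subunits they were 71.45% for Itgb1, 27.81% for Itga4 and 12.47% for Itgav. On long transcripts they were 5.578% for Itgav and 20.87% for Lama5. The ratio of alpha partners to Itgb1 was above 1, at 1.189, on expected counts and 0.6264 on long transcripts, that to Itgb2 was 0.9519 on expected counts, and laminin beta over gamma was 1.528 on long transcripts. Without a filter on mean TPM the members' median log2 ratio was 0.03. No chain passed 1.5-fold in either direction in any setting run. Each setting added a pseudocount, which shrinks the ratios of low chains. Without one, Itga9 was 1.514-fold higher in replicate 2 on TPM, and some undetected chains were further apart. Leaving out either library kept 18 chains, 14 pairs and 2 trimers, but since detection was required in both, this could only add to them. Depth limits the chains under 20 reads, for which no level beyond near 0 can be read.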

Other observations

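Laminin can also be bound without integrins, and receptors for that were examined in 1 list with tetraspanins. All 9 of the other laminin receptors and integrin-associated tetraspanins examined were detected, with 254.5 and 270.9 TPM in sum. This sum is not that of laminin receptors alone, of which Dag1 was at 9.72 and 10.52 TPM. Cd81 (97.78 and 106.14 TPM) and Cd9 (78.99 and 85.78 TPM), tetraspanins that sit beside integrins in the membrane, were the highest and both exceeded Itgb1 in each liver. Sdc4, a heparan sulfate carrier of focal adhesions, was at 20.72 and 19.52 TPM. Bcam, the Lutheran blood group receptor for Lama5, was the lowest at 3.97 and 5.44 TPM. None of the 9 was 1.5-fold apart between the livers on TPM + 1.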
